A study of Mus musculus with 2 samples.

Results

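CTCF summits in introns are the binding sites of CTCF that lie within the transcribed bodies of protein-coding genes, away from exons and gene starts. Members were the deposited CTCF summits on chromosomes 1 to 19 that fell inside a protein-coding gene body of GENCODE M1 (mm9), outside every annotated exon and more than 1 kb from every gene start. Of the 33788 summits of the deposited list, 33226 lay on these chromosomes and 13796 were members, 41.5% of the latter (95% Wilson interval 41.0 to 42.1). The choice was by position and used no measured level. Introns were numbered from the gene start along the protein-coding transcript with the longest span, which placed 3097 members in first introns and 10344 in later introns. The other 355 lay in no intron of that transcript and carry no number. At the edge of the rule, 120 members lay up to 1200 bp from a gene start, with a median height of 12 tags, and 323 summits left out lay between 800 and 1000 bp from one, also with a median of 12 tags.

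The data came from R1/E mouse embryonic stem cells (ESC) in which CTCF with a LAP tag, containing GFP, was expressed from a stably integrated BAC beside the untagged protein of the cells. Chromatin, fixed in 1% formaldehyde and sheared to about 500 bp, was precipitated with goat antibody to eGFP in 1 library and with goat control IgG in the other. The cells of both libraries were grown with LIF on gelatine, and no age or further treatment applies. There is 1 library of each, so no value below carries a replicate error, and all intervals cover counting error only. The IgG library is also called input DNA in its labels and was read here as IgG. ChIP tags give no expression with which to check the cell type. The CTCF library held 8391191 tags and the IgG library 7988889 tags, each 35 bp long.

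CTCF is a zinc finger protein that binds a long, asymmetric DNA motif. It can block enhancers, and together with cohesin it holds the bases of chromatin loops, which form preferentially between motifs that point toward each other. Within genes, CTCF has been linked to pausing of RNA polymerase II and to the choice of exons, and its motif is known to have multiplied in rodent genomes with mobile elements of the B2 family of short interspersed repeats.

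The motif used here was built from 192 CTCF motif sequences that the study lists at binding sites of RAD21, a cohesin subunit, and not from the CTCF library. The consensus of this motif is shown because every strand and orientation below refers to it, with all letters in capitals:
CTCF consensus: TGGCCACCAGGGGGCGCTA
A match needed a score of at least 13.06 bits, which a random position reaches with a probability of 1e-05. The following windows of mm9 show 40 bases either side of the best match at high-scoring members, with the match in capitals, read 5′ to 3′ on the strand of the motif. They are shown because they span intron classes from under 5 kb to over 100 kb. In Pdzd7, a scaffold protein of the stereocilia of hair cells, the match lay in intron 11 at chr19:45105496-45105514 on the minus strand, which is the strand of the gene. In Acbd6, an acyl-CoA binding protein, it lay in intron 3 at chr1:157422590-157422608 on the plus strand, again that of the gene. In C1qtnf9, a secreted relative of adiponectin, it lay in intron 1 at chr14:61390205-61390223 on the minus strand, against the gene. In 1700101E01Rik it lay in intron 1 at chr2:28908733-28908751 on the minus strand, that of the gene. In Arl15, a small GTPase, it lay in intron 1 at chr13:114656193-114656211 on the minus strand, against the gene.
Pdzd7 intron 11: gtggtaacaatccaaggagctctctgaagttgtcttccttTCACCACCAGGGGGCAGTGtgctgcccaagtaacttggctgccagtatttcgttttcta
Acbd6 intron 3: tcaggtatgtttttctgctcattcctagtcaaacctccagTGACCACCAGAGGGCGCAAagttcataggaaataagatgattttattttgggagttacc
C1qtnf9 intron 1: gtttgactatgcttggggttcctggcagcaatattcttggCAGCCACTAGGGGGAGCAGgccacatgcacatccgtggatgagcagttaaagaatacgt
1700101E01Rik intron 1: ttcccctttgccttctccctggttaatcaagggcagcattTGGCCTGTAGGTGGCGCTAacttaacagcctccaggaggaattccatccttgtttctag
Arl15 intron 1: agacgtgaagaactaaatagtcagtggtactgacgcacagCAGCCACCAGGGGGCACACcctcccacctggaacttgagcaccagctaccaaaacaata
The matches scored 23.18 bits in Pdzd7, 22.78 in Acbd6, 18.5 in C1qtnf9, 21.9 in 1700101E01Rik and 21.64 in Arl15.

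Many members did not carry a sequence of their own. Of the 9771 members whose matches were compared letter by letter, 2518 (25.8%, interval 24.9 to 26.6) shared all 19 letters of their best match with at least 1 other member. The 5 most frequent words are shown with the shared part in capitals, because they differ only at the ends:
word at 168 members: aggCCAGAAGAGGGCatca
word at 84 members: aggCCAGAAGAGGGCacca
word at 56 members: atgCCAGAAGAGGGCatca
word at 54 members: aggCCAGAAGAGGGCgtca
word at 48 members: aggCCAGAAGAGGGCactg
The most frequent word stood at 168 members in 168 different genes, and at 162 intergenic summits. The 12 shared letters, at positions 4 to 15 of the motif, are called the repeated core below and were picked after these words had been seen. The similarity ran on into the flanks. At 1851 members with the core, the most common base at each of 40 flanking positions on either side was present in a median of 45.6% of windows and in up to 91.8%, against a median of 30.8% and at most 57.2% at the 7920 members without it. The most common bases at the members with the core read as follows, with the motif in capitals, beside the 4 highest-scoring members of this kind:
most common base: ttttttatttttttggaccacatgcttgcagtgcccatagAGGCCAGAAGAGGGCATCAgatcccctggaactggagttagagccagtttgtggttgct
Rimbp2 intron 6: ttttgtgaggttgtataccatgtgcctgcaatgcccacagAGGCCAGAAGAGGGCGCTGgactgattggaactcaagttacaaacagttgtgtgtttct
Jph3 intron 1: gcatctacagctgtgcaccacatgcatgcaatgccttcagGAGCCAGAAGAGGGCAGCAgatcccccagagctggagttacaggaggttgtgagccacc
Tcf19 intron 3: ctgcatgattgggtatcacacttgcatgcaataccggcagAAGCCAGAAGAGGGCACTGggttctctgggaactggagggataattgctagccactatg
Esrrb intron 5: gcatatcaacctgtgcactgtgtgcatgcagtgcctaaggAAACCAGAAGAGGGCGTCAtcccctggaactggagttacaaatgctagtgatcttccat
In mm9 these 4 matches lay at chr5:129314875-129314893 (minus strand), chr8:124275516-124275534 (minus strand), chr17:35651017-35651035 (minus strand) and chr12:87849738-87849756 (plus strand). The summits held 40 CTCF tags in Rimbp2, a protein of the presynaptic active zone, 48 in Jph3, 43 in Tcf19 and 59 in Esrrb, with 3, 0, 2 and 1 IgG tags respectively. Single windows matched the most common flanking bases at a median of 50% of positions (quartiles 42.5 and 56.2), compared with 28.7% for members without the core. Alignments were without gaps, and no repeat annotation was used, so the windows were not assigned to a repeat family.

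Members were denser than intergenic summits for the sequence available. Density was counted as summits per 1000000 IgG tags in the same class of sequence, since IgG tags fall where sequence can be cloned and aligned. Introns had a density of 4656 (exact 95% interval 4579 to 4735) and intergenic sequence 3554 (3497 to 3611), from 14977 summits. Exons held 6900 (6568 to 7245, 1617 summits) and the 1 kb either side of gene starts 12703 (12182 to 13241, 2236 summits), so introns ranked between intergenic sequence and exons and none of the 4 intervals overlapped. Per Mb of sequence the order was the same, with 16.2 summits in introns, 11.0 in intergenic sequence, 23.7 in exons and 34.97 at gene starts.

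Density fell steadily with intron length. Introns under 5 kb had a density of 7515 (7303 to 7732, 4749 summits). The value was 5641 (5467 to 5820, 3949 summits) in introns of 5 to 20 kb and 3884 (3719 to 4055, 2073 summits) in those of 20 to 50 kb. It fell further to 3072 (2907 to 3243, 1307 summits) at 50 to 100 kb and to 2241 (2123 to 2363, 1363 summits) at 100 kb or more. The ratio of the longest to the shortest class was 0.298. The 5 intervals did not overlap, and introns of 50 kb or more lay below intergenic sequence. The heights of the sites changed little over the same range, with a median of 13 tags in introns under 5 kb and 12 in those of 100 kb or more.

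**Figure D1:**
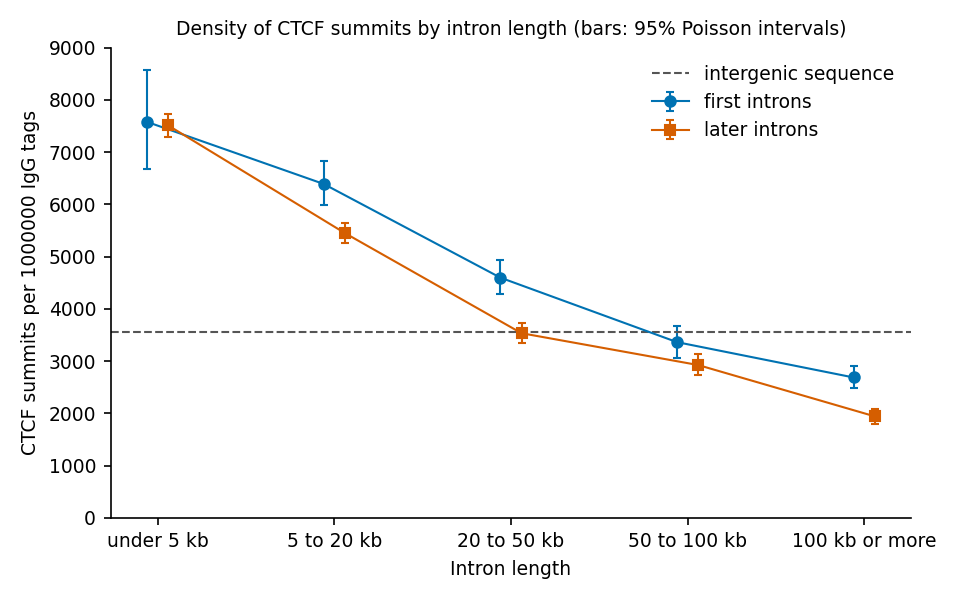
Density in CTCF summits per 1000000 IgG tags (y axis) in first introns (circles) and later introns (squares) of 5 length classes (x axis), with exact 95% Poisson intervals; the dashed line is intergenic sequence at 3554. Density fell from 7581 to 2687 in first introns and from 7512 to 1942 in later introns, and first introns stood above later ones in the 4 classes of 5 kb or more.

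Whether first introns were richer or poorer in CTCF than later ones depended on what was held fixed. Taken whole, first introns had a density of 4208 (4061 to 4358) and later introns 4781 (4690 to 4875), a ratio of 0.880 (exact 95% interval 0.845 to 0.916). First introns are longer than later ones, and at matched length the order was the opposite. The ratio was 1.01 (0.886 to 1.15) in introns under 5 kb, which leaves 1 inside the interval. It was 1.17 (1.09 to 1.26) at 5 to 20 kb, 1.301 (1.19 to 1.42) at 20 to 50 kb, 1.15 (1.03 to 1.29) at 50 to 100 kb and 1.38 (1.24 to 1.54) at 100 kb or more. Of the 655 first-intron members of the last class, 89 lay in the single annotated first intron of Gm20388, a gene model of 4435 kb. With the 4 introns of 1 Mb or more left out, an alternative chosen after seeing the data, the ratio in that class was 1.26 (1.12 to 1.41).

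At matched distance from the gene start the order turned once more. Distance was counted here from the start of the transcript along which introns were numbered. First introns held 0.762 times (0.682 to 0.851) the density of later introns at 1 to 5 kb from the start, 0.647 times (0.579 to 0.722) at 5 to 10 kb and 0.632 times (0.580 to 0.688) at 10 to 25 kb. The ratio was 0.566 (0.508 to 0.628) at 25 to 50 kb, 0.645 (0.572 to 0.726) at 50 to 100 kb and 0.801 (0.707 to 0.905) over 100 kb. Sequence that far from the start and still in intron 1 belongs to a long intron, so the comparisons at matched length and at matched distance hold different things constant. Intronic density as a whole fell with distance from the gene start, from 7247 (6866 to 7643) at 1 to 5 kb to 2940 (2838 to 3044) over 100 kb.

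**Figure D2:**
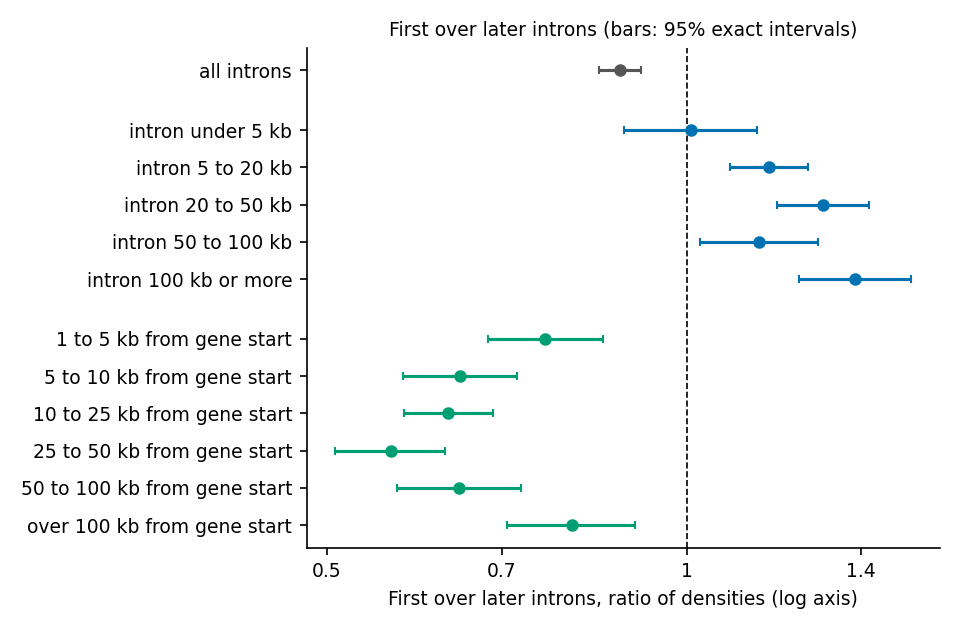
Ratio of summit density in first introns to that in later introns (x axis, log scale) for all introns, within 5 classes of intron length and within 6 classes of distance from the gene start, with exact 95% intervals; the dashed line is equal density. The ratio lay above 1 in the 4 length classes of 5 kb or more and below 1 in every distance class. Distance was counted from the start of the transcript used for numbering.

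Members lay closer to exons than IgG tags did. Of the 13441 numbered members, 4677 (34.8%, interval 34.0 to 35.6) lay within 1 kb of an exon, compared with 23.5% of the IgG tags of the same introns. The density within 1 kb was 1.73 times (1.67 to 1.80) that farther away. Short introns consist mostly of such sequence. In later introns of 5 kb or more the share was 13.6% (12.8 to 14.5) against 10.2% of IgG tags, a density ratio of 1.39 (1.29 to 1.498). Density within these introns also fell with length, from 5451 at 5 to 20 kb to 1942 at 100 kb or more. The ratio therefore does not separate nearness to an exon from intron length. The side of the exon made no measurable difference. Downstream of the exon lay 47.5% (46.0 to 48.9) of the members near one, and 47.1% of the IgG tags near one. Along the length of the introns, the density in 5 equal parts of later introns lay between 4681 and 4885, with overlapping intervals, and that in 5 equal parts of first introns between 3918 and 4411.

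The ratio of CTCF to IgG tags at members was slightly lower than at intergenic, exonic and gene start summits. Counted within 150 bp of the summit and scaled to equal depth, members held 224394 CTCF and 15364 IgG tags, a ratio of 13.9 (exact 95% interval 13.7 to 14.1). Intergenic summits had a ratio of 14.3 (14.1 to 14.6), those at gene starts 15.3 (14.7 to 16.0) and those in exons 15.8 (15.0 to 16.6), so members stood at 0.970 (0.948 to 0.992) of intergenic summits and 0.908 (0.868 to 0.951) of gene starts. CTCF tags per summit were not lower at members, with a median of 15 there, at intergenic and at exonic summits, and 14 at gene starts. IgG tags per summit were higher, with 15364 at 13796 members against 16098 at 14977 intergenic summits. First introns had a ratio of 14.6 (14.1 to 15.1) and later introns 13.7 (13.5 to 14.0), which differed by a factor of 1.07 (1.02 to 1.11). Heights and CTCF tags did not follow this order. The median height was 12 tags (12 to 13) in first and 13 (13 to 13) in later introns, with medians of 14 and 15 CTCF tags. IgG tags were fewer per member in first introns, with 3248 at 3097 members against 11719 at 10344 in later introns. Heights ran from 6 to 86 tags in introns, with quartiles of 10, 13 and 17, the same quartiles as in intergenic sequence. A one-sided exact binomial test of CTCF against IgG tags, adjusted by Benjamini-Hochberg over all 33788 summits, called 13445 members at 0.05. That is the background share, since 97.5% of all summits were called, and the test compares the 2 libraries that the peaks were called from. In the stretch of chromosome 8 around Ctcf where both libraries are raised, 12 members had a ratio of 7.91 (5.58 to 11.5).

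The CTCF motif was slightly less frequent at members than at intergenic summits. A match lay within 150 bp of 10060 members, 72.9% (interval 72.2 to 73.7), against 5.16% at control positions 2000 bp to either side. The share was 74.6% (73.9 to 75.2) at intergenic summits, 69.9% (67.7 to 72.1) in exons and 59.5% (57.5 to 61.5) at gene starts. The difference from intergenic summits was -1.63 percentage points (-2.65 to -0.62), and from gene starts 13.4 points (11.2 to 15.6). First introns had a match at 70.6% (69.0 to 72.2) of members and later introns at 73.7% (72.8 to 74.5), a difference of -3.08 points (-4.91 to -1.28). The share rose with the score that the authors' peak caller gave, from 56.9% (55.3 to 58.6) at scores of 50 to 75 to 88.3% (81.0 to 93.0) at 500 or more. The gap to intergenic summits lay at low scores, with 60.8% (59.2 to 62.4) of the latter at 50 to 75, while at 200 to 500 the shares were 85.3% (84.0 to 86.6) in introns and 85.2% (83.8 to 86.4) between genes. The 19 positions were not equally constant across members, with C in 99.7% of matches at position 5 and G in 99.9% at position 10, but A in 58.2% and G in 41.4% at position 11.

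The repeated core made up a smaller share of bound motifs than of all motif matches, in introns taken whole and between genes alike. It was present at 1890 of the 10060 members with a match, 18.8% (18.04 to 19.6), in 1559 genes. At intergenic summits the share was 15.5% (14.9 to 16.2) and at gene starts 10.8% (9.26 to 12.6). Among all motif matches it was 22.3% (22.0 to 22.5) in introns and 18.9% (18.6 to 19.1) between genes, so introns stood above intergenic sequence by about as much without regard to binding, and the core had been picked from the words of the members. First introns had the core at 23.4% (21.7 to 25.2) of matched members and later introns at 17.4% (16.6 to 18.3), which differed by 5.99 points (4.06 to 7.99), whereas all motif matches had it at 22.8% (22.4 to 23.4) and 22.04% (21.7 to 22.3). At matched length this difference was between 6.35 and 9.61 points in introns under 100 kb, and 0.79 points (-3.84 to 5.47) in those of 100 kb or more. Members with the core were lower, with a median height of 12 tags (12 to 13) against 14 (14 to 14) and a median score of 107.8 against 138.4. Their ratio of CTCF to IgG tags was 15.3 (14.5 to 16.0) and that of the other matched members 14.9 (14.6 to 15.2), so the intervals overlapped. The core stood on the strand of the host gene at 57.8% (55.6 to 60.0) of members, against 49.4% (48.3 to 50.5) for other motifs. Copies more than 1 kb from every peak did so at 60.4% (59.7 to 61.0) with the core and 50.0% (49.6 to 50.4) without it. Such copies lacked a peak but not CTCF tags, with ratios of CTCF to IgG of 4.04 and 1.66 respectively. These pools differed in motif score. Of the 19279 copies with the core 14188 scored 17.5 to 20 bits, against 5673 of 67040 without it. At 20 bits or more the ratios were 4.74 and 4.92.

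Most copies of the motif in introns had no summit, and the share with one differed by score and between copies with and without the repeated core. Of 103881 intronic matches, 10728 (10.3%, interval 10.1 to 10.5) had a summit within 150 bp. The share rose from 2.98% (2.82 to 3.14) below 15 bits to 44.6% (43.6 to 45.6) at 20 bits or more, and for intergenic matches of that strength it was 44.7% (43.8 to 45.7). At 20 bits or more, later introns had 45.6% (44.4 to 46.8) of matches occupied and first introns 41.2% (39.2 to 43.3). From 15 bits upward, copies with the repeated core had a summit less often than others of the same score. At 20 bits or more the share was 28.5% (27.2 to 29.8) of 4680 copies with the core and 60.4% (59.0 to 61.7) of 4772 without it. At 17.5 to 20 bits it was 3.51% (3.23 to 3.802) of 16001 copies with the core and 28.5% (27.6 to 29.5) of 8826 without it. Below 15 bits the order was the opposite, with 4.67% (2.94 to 7.35) of 364 copies with the core and 2.96% (2.81 to 3.13) of those without it. Away from peaks, the ratio of CTCF to IgG tags ran the other way at 17.5 to 20 bits, but not at 20 bits or more. At copies more than 1 kb from every peak, it was 4.10 (3.98 to 4.21) with the core and 2.82 (2.73 to 2.91) without it at 17.5 to 20 bits. At 20 bits or more it was 4.74 (4.52 to 4.97) and 4.92 (4.62 to 5.24), with overlapping intervals. The CTCF tags themselves were fewer per copy with the core in both classes. At 17.5 to 20 bits, 26689 lay at 14188 such copies with the core and 14665 at 5673 without it. Fewer IgG tags aligned at copies with the core, with a mean of 0.437 within 150 bp against 0.872 at 17.5 to 20 bits and of 0.722 against 0.801 at 20 bits or more, counted over copies more than 1 kb from every peak. The part of this difference in coverage in the occupied share was not tested.

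**Figure D3:**
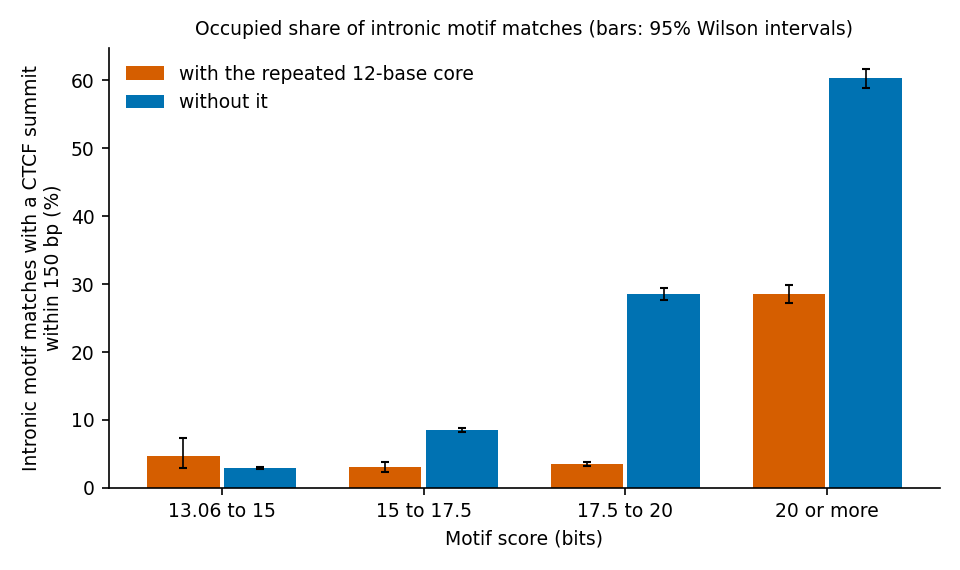
Share of intronic motif matches with a CTCF summit within 150 bp (y axis) in 4 classes of motif score (x axis), for matches with the repeated core of 12 bases and without it, with 95% Wilson intervals. In the 3 classes from 15 bits upward the matches with the core had a summit less often, at 28.5% against 60.4% in the strongest class.

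The strand of the motif shifted along the host gene. Over all members with a match, 5128 motifs stood on the strand of the gene and 4932 on the other, 51.0% (50.0 to 52.0). In the first of 5 equal parts of the gene body, counted from the gene start, 967 of 1646 motifs (58.7%, interval 56.4 to 61.1) stood on the strand of the gene. The share was 54.7% (52.5 to 57.0), 51.1% (48.9 to 53.2) and 48.7% (46.6 to 50.7) in the following parts and 44.3% (42.2 to 46.4) in the last. The first and last parts differed by 14.5 points (11.3 to 17.6). In gene bodies of 100 kb or more the range was wider, from 61.8% (58.5 to 65.1) to 41.2% (38.4 to 44.1), and in those under 100 kb it was narrower, from 55.6% (52.2 to 59.0) to 47.5% (44.5 to 50.4). Members without the repeated core went from 57.1% (54.3 to 59.7) to 42.5% (40.2 to 44.7). Copies away from peaks moved in the same direction. Of the intronic matches more than 1 kb from every peak, 55.9% (55.1 to 56.6) stood on the strand of the gene in the first part and 48.6% (47.8 to 49.4) in the last, a difference of 7.30 points (6.21 to 8.40), and without the core the shares were 52.9% (52.0 to 53.7) and 47.3% (46.5 to 48.2).

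**Figure D4:**
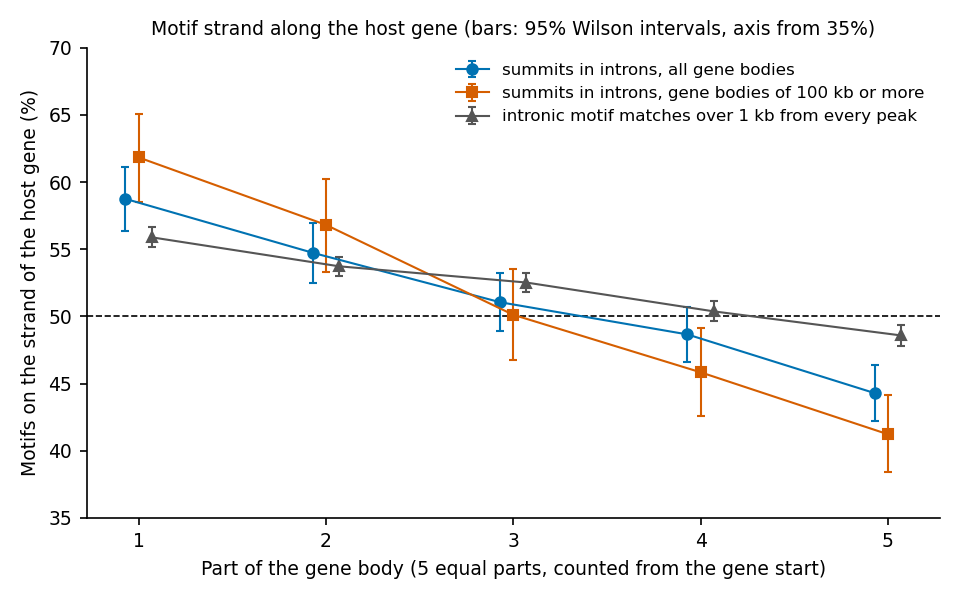
Share of motifs on the strand of the host gene (y axis, from 35%) in 5 equal parts of the gene body from the gene start (x axis), for all members with a match, for those in gene bodies of 100 kb or more and for intronic matches more than 1 kb from every peak, with 95% Wilson intervals. The share fell from 58.7% to 44.3% for all members and from 55.9% to 48.6% for matches without a peak nearby.

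The highest score of all members, 1417.25, belonged to intron 6 of Ctif, a translation initiation factor, where 107 CTCF tags and no IgG tag lay within 150 bp of the summit and 7 motif matches were found. Against a floor of 3 IgG tags the site was 34.0-fold enriched. The exact 95% lower limit of the ratio, taken from the counted tags without the floor, was 27.1. Height and score ranked sites differently. The second score, 989, in intron 11 of Pdzd7, came with a height of 25 tags and a peak 3286 bp wide, with 27 CTCF tags and 1 IgG tag near the summit (ratio 25.7, exact 95% interval 4.24 to 1052). In intron 1 of C1qtnf9 the score was 890 with a height of 61 tags, from 62 CTCF tags and 1 IgG tag (ratio 59.0, interval 10.2 to 2369). In intron 3 of Acbd6 the score was 944 with a height of 28 tags, from 31 CTCF tags and 1 IgG tag. In intron 6 of Dido1, a chromatin-associated protein needed for ESC differentiation, 57 CTCF tags stood against no IgG tag. The other 5 of the 10 highest-scoring members lay in Tjp3, a tight junction protein, in 4933432B09Rik, Slc37a1, Igsf8 and Cyfip2, with scores from 805 to 893 and heights of 24 to 38 tags. Of these 10 members, those in 4933432B09Rik and Igsf8 had no match. Among the other members that led a class of intron number and length, the scores were 776 in intron 1 of 1700101E01Rik, 711 in intron 1 of Jph3, a protein that joins the plasma membrane to the endoplasmic reticulum, 643 in intron 2 of Vgll4, a cofactor of TEAD factors, 654 in intron 1 of Arl15 and 756 in intron 3 of Pde4d, where 36 CTCF tags and no IgG tag were found but no match. The 5 lowest members, in Gas7, Mycl1, Ece1, Crmp1 and Cacng8, had scores of 50.0, 7 to 9 CTCF tags and at most 1 IgG tag.

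Most introns with a member held a single one. Of 10787 introns, 9091 held 1 summit, 1207 held 2 and 38 held 6 or more. The 5 introns with the most were intron 1 of Gm20388 with 89 summits, intron 2 of Fgfr2 with 21, intron 1 of Pcdhgc5 with 17, intron 1 of Accn1 with 14 and intron 3 of Pde4d with 11. The first and second of these are annotated as 4384 and 2957 kb long and span other genes. Pcdhgc5 belongs to the protocadherin gamma cluster, whose variable first exons are chosen cell by cell, and its intron of 148 kb stood apart in sequence, with a match at 1 of its 17 summits, although 316 CTCF and 12 IgG tags lay at them. In Accn1, an acid-sensing ion channel gene, 11 of 14 summits had a match, and in Pde4d, a cAMP phosphodiesterase gene, 7 of 11 did. By gene, Camta1, a calmodulin-binding transcription activator, Dnahc8, an axonemal dynein, and Fry, which shapes cell form, had 27 summits each. Per 1000000 IgG tags, Camta1 had a density of 12245, Fry of 20548 and Dnahc8 of 22041, against 4656 over all introns. Per Mb the values were 34.6, 74.6 and 115.5, against 16.2, so Fry and Dnahc8 were close on the former scale and apart on the latter.

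Intronic summits were present in 6719 of 17929 protein-coding genes with intronic sequence, so that 37.5% of genes is the background for the lists that follow. The share rose with the length of the gene body from 15.2% (14.4 to 16.0) under 20 kb to 94.7% (90.5 to 97.1) at 500 kb or more, while density fell from 9713 to 1994. Of 30 genes of the pluripotency network, 15 had at least 1 intronic summit, 35 in all, and the density was 8157 (5681 to 11344), or 1.75 times (1.22 to 2.44) that of other genes. The median body of these genes was 21.9 kb, and genes of 20 to 50 kb as a whole held 7341. The list density is pooled over sequence, however, so longer genes weigh more than the median gene. Genes of 50 to 100 kb held 5838 and those of 100 to 200 kb 4467, and a comparison matched for length was not made. Esrrb, an orphan nuclear receptor of the network, held 6 summits, among them the one printed above with 59 CTCF tags and 1 IgG tag (ratio 56.2, interval 9.70 to 2256) and a height of 42 tags. Jarid2, a partner of Polycomb repressive complex 2, Smarcad1, a chromatin remodeller, and Tet1, which oxidises methylated cytosine, held 4 each. Among 36 neuronal adhesion and synapse genes, all had at least 1 summit, 191 in all, but the density was 1547 (1335 to 1782), 0.323 times (0.278 to 0.372) that of other genes. Their median body was 967 kb, and genes of 500 kb or more held 1994. Dlg2, a synaptic scaffold, held 14 summits, Csmd1 13, the neurexin gene Nrxn3 12 and Cntnap2 11.

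The intervals for developmental signalling genes and for genes of chromatin and DNA loop machinery included the density of other genes. Their median bodies were 85.5 and 80.3 kb. Genes of 50 to 100 kb as a whole had a density of 5838, above both intervals, and those of 100 to 200 kb had 4467. List densities are pooled over sequence, so the longest genes weigh more than the median gene. A comparison with genes of like length was not made. Of 40 signalling genes, 29 had 84 summits between them at a density of 4464 (3561 to 5527), 0.958 times (0.764 to 1.19) that of other genes. Fgfr2, a fibroblast growth factor receptor, held 21 of these in its annotated body of 3009 kb, and Ephb2, an ephrin receptor, and Lrp5, a Wnt co-receptor, held 8 each, ahead of the BMP receptor gene Bmpr1a and the inhibitory SMAD gene Smad6 with 4 each. Of 36 chromatin and loop genes, 24 had 58 summits at 3809 (2892 to 4923), 0.817 times (0.620 to 1.06) that of other genes. The list includes Ctcf, in the stretch where both libraries are raised, with 1000 IgG tags in 38.3 kb of intron. This lowers the density per IgG tag. Per Mb the list held 15.4 summits, against 16.2 over all genes. Arid1b, a subunit of the BAF remodeller, held 8, Kdm2b, a histone demethylase, 7, and the histone methyltransferase gene Ehmt1, the cohesin loader gene Nipbl and the BAF ATPase gene Smarca4 4 each.

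At 2 genes an effect of CTCF within the gene body has been described in blood cells, Ptprc, which encodes CD45 and whose exon choice it affects, and Myb, whose first intron holds a site of transcriptional arrest. Ptprc held 3 members with scores of 62.5, 82.9 and 131, in introns 4, 3 and 21 of its host transcript, where the median score of all members was 119.9. The one in intron 4 lay 101 bp before the next exon, with 9 CTCF tags and no IgG tag within 150 bp. Set against a floor of 3 IgG tags it was 2.86-fold enriched. From the counted tags, without the floor, the exact 95% lower limit of the ratio was 1.88. This member had an adjusted p = 0.00337 (one-sided exact binomial test with Benjamini-Hochberg adjustment). Its motif of 13.6 bits, at chr1:140016823-140016841 on the plus strand of mm9, against the gene, is shown with its flanks because it lies next to an exon:
Ptprc intron 4: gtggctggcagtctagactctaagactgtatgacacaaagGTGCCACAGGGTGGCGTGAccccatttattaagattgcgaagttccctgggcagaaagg
Myb held 1 member, 2441 bp into its first intron of 4238 bp, with a score of 290 and no match at 13.06 bits. It had 31 CTCF tags and no IgG tag, 9.84-fold against the same floor. From the counted tags, without the floor, the exact 95% lower limit was 7.53 (adjusted p = 4.78e-08 by the same exact binomial test).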

How the data were processed

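ChIP-seq of CTCF-GFP and of control IgG in the tagged R1/E ESC line was analysed. The authors deposited aligned tags of 35 bp, 1 line and a count of 1 per tag, without normalization, and for CTCF the MACS 1.4 peaks, whose score is the p-value over IgG on a log10 scale multiplied by -10, and the summits with the signal, the pileup height in tags. The aligner is not given in the sources used here. Coordinates are mm9.

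Computed here, in Python 3.11.15 (numba 0.67.0, numpy 2.4.6, pysam 0.24.0, scipy 1.17.1, matplotlib 3.10.9, pandas 2.3.3): tags were moved 93 bp, from a fragment length of 186 bp at the 1000 highest-scoring peaks. Summits were classed as at gene starts, exonic, intronic, other non-coding gene sequence or intergenic, in this order, with GENCODE M1. Where genes overlapped, the shortest body was the host. Where a listed symbol had more than 1 gene ID, the longest body was used. Shares carry Wilson, differences Newcombe, ratios exact conditional binomial, densities exact Poisson and medians order-statistic intervals, all at 95%. A ratio of tag ratios carries a log-normal interval from the tag counts instead. The motif matrix had a pseudocount of 1 and base frequencies of 0.29 (A, T) and 0.21 (C, G). Sites are not replicates, so no p-value is given across them. Members and gene lists were chosen with earlier results of these data known. Named members were the 10 highest and 5 lowest scores, the highest score of each intron class, the 5 introns and 5 genes with the most summits, the 4 genes of each list with the most summits and both described loci. The words, the repeated core and its examples were chosen after their values were seen. Sequences were read from NCBI m37 (mm9), which matched the deposited coordinates, and words and flanks were not taken from chromosome 18. The scripts were tested on simulated data.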

Additional observations from a re-analysis of the deposited data

Results flagged for a closer look

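Signal was seen in tags that entered no peak. Intronic motif matches of 20 bits or more that lay over 1 kb from every peak, 4320 in all, held 16299 CTCF and 3232 IgG tags within 150 bp, a ratio of 4.80 at equal depth (exact 95% interval 4.62 to 4.99), above the level of 1 that the IgG control sets. The ratio was 1.35 (1.33 to 1.36) at matches below 15 bits, 1.78 (1.75 to 1.81) at 15 to 17.5 bits and 3.53 (3.46 to 3.61) at 17.5 to 20 bits. At 20 bits or more it was 4.75 (4.40 to 5.13) in first introns and 4.84 (4.63 to 5.06) in later introns, with overlapping intervals. These matches carried a median of 3 CTCF tags each.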

How the results depend on the processing

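Over 20 results and 80 alternatives, 56 values stayed within the counting interval of the reported value (for counts of sites, within a factor of 1.5) and 24 did not. Density fell with intron length and first introns taken whole stayed below later ones under every alternative run. Restricting peaks to scores of 100 or more left 8298 members, 22.0% of the numbered ones in first introns, at 0.831 times the density of later introns. Density was then 4699, 3413, 2241, 1737 and 1287 from the shortest to the longest introns, and the 3 longest classes stood at 0.477, 0.370 and 0.274 times the shortest. The median height was 16 tags in first and later introns, the CTCF to IgG ratio was 16.5, 8268 members were called, 80.5% had a match and 35.97% lay within 1 kb of an exon. The ratio was 8.12 with 500 bp either side and 15.5 when scaled by tags outside peaks. The share with a match was 83.9% at a motif p of 1e-04 (19.03% at control positions) and 31.6% within 50 bp (1.57%). When the 1 kb limit was applied to the start of every annotated transcript, 32.6% lay near an exon. Without introns of 1 Mb or more, density in the longest class was 2105, 0.280 times the shortest. The cause of these moves was not tested, apart from fewer summits entering at the higher score.

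With 1 library an antibody, library to library error is unknown. No paired analysis was possible because each antibody had a single library. About 15 CTCF tags stand behind a typical member, so single-site ratios are imprecise.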

Other observations

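Neighbouring members with a match in the same intron showed another mix of orientations than neighbours between genes. Of 1422 such pairs in introns, at a median gap of 8567 bp, 51.8% (95% Wilson interval 49.2 to 54.3) pointed the same way, 23.3% (21.2 to 25.6) toward each other and 24.9% (22.7 to 27.2) away from each other. Of 4449 intergenic pairs, 53.8% (52.3 to 55.2) pointed the same way, 19.2% (18.04 to 20.4) toward each other and 27.1% (25.8 to 28.4) away. The intervals of the pairs pointing toward each other did not overlap over all gaps, but within classes of gap they did in 3 of 4. In introns, pairs over 50 kb apart pointed toward each other in 50 of 173 cases and away in 27, while pairs up to 2 kb apart did so in 35 and 50 of 196 cases. Between genes the counts turned in the same direction, with 173 toward and 163 away over 50 kb, and 68 and 122 up to 2 kb.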
